A study of Mus musculus with 6 samples.

Results

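Mouse myoblasts infected with an adenovirus for wild-type p300 were compared without and with doxycycline, on 4 of the 6 arrays of the series. The 4 arrays were chosen by their labels alone: wild-type p300 without doxycycline at 0 h and at 24 h, and wild-type p300 with doxycycline at 0 h and at 24 h. The cells were C2AS12, a myoblast line derived from C2 muscle cells, and every culture carried the wild-type p300 adenovirus. The 0 h samples were taken before the cells entered low-serum differentiation medium, and the 24 h samples after 24 h in it. The remaining 2 arrays carried an adenovirus for mutant p300 and were not used. The submitters state that the cells survived with wild-type p300 and died by apoptosis when doxycycline was added, so the comparison sets surviving cells against dying cells. The labels do not state what doxycycline does to the virus, and doxycycline itself and any change in p300 that it brings cannot be told apart here. There was 1 array for each treatment and time, so a difference was read only where it had the same direction at both times.

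p300 is a lysine acetyltransferase and transcriptional coactivator that acetylates histones at enhancers and promoters and binds many transcription factors, among them MyoD, the factor that commits cells to muscle. Myoblasts deprived of serum leave the cell cycle and either switch on contractile genes and fuse, or die by apoptosis. Doxycycline is a tetracycline antibiotic that is used to switch tetracycline-regulated genes, and it also binds mitochondrial ribosomes and inhibits matrix metalloproteinases.

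Expression was measured on oligonucleotide arrays as a signal, a linear intensity, for 12488 probe sets. After removal of 66 control probe sets, the 6211 probe sets whose mean signal was at least 76.8 on these 4 arrays were compared, and 4824 genes were represented by the brightest of their probe sets. Signals below a floor of 17.1 were set to it, and ratios are given as the signal without doxycycline over the signal with doxycycline. The 4 arrays had similar median signals, between 74.9 and 78.1, and similar 3' to 5' ratios of the actin controls, between 1.30 and 1.45. The 9 spike-in controls differed between the arrays at 24 h, where their mean lay 0.16 below the 4-array mean (log2) without doxycycline and 0.16 above it with doxycycline. Scaling to them would raise the median log2 ratio of all probe sets by 0.32 at 24 h and by 0.01 at 0 h, so that negative 24 h log2 ratios smaller in size than this shift, Rela, Hmox1, Bcl2l1, Akt1, Igf1r and Atf4 among those named here, turn positive on that scale. Of the 9 myoblast markers on the array, 8 passed the filter, and their summed signal was 2974 without and 2868 with doxycycline at 0 h, and 3694 without and 4169 with doxycycline at 24 h. The markers of other cell types were mostly dim: 3 of 15 passed for macrophages and leukocytes, 1 of 10 for endothelium, 1 of 10 for epithelium, 3 of 7 for adipocytes and 0 of 5 for bone and cartilage. Ep300, the gene of p300, has no probe set of its own among those with a single gene symbol, so its level was not measured.

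Cells without doxycycline had higher signals for a set of secreted inflammatory, cornified-envelope, matrix and antioxidant genes at both times, and lower signals for a smaller set that includes muscle genes. At least 2-fold higher signals at both times were found for 34 probe sets, 0.547% of those tested, and at least 2-fold lower signals for 8, 0.129%. At 1.5-fold the counts were 123 (1.98%) and 54 (0.869%). With each gene read from its brightest probe set, 28 genes (0.58%) were past 2-fold higher and 6 (0.124%) lower. Aldh3a1 and F7 on the higher side, and Znrf1 and Thrap3 on the lower, passed only on a probe set that was not their brightest. On those probe sets Znrf1 and Thrap3 had log2 ratios of -2.07 and -1.17 at 0 h and -1.95 and -1.19 at 24 h. The differences were larger after 24 h in low-serum medium: 57 probe sets were at least 2-fold higher at 0 h (0.918%) and 165 at 24 h (2.66%), while 28 (0.451%) and 79 (1.27%) were at least 2-fold lower. The 34 shared probe sets made up 59.6% of the 57 and 20.6% of the 165, and 31 of the 34 had the larger ratio at 24 h. The 8 shared lower probe sets made up 28.6% of the 28 and 10.1% of the 79, and 6 of the 8 had the larger ratio at 24 h. Over all 6211 probe sets the ratios at the 2 times correlated with Pearson's r of 0.44 and Spearman's rho of 0.35, a description across probe sets, which are not independent of each other.

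**Figure D1:**
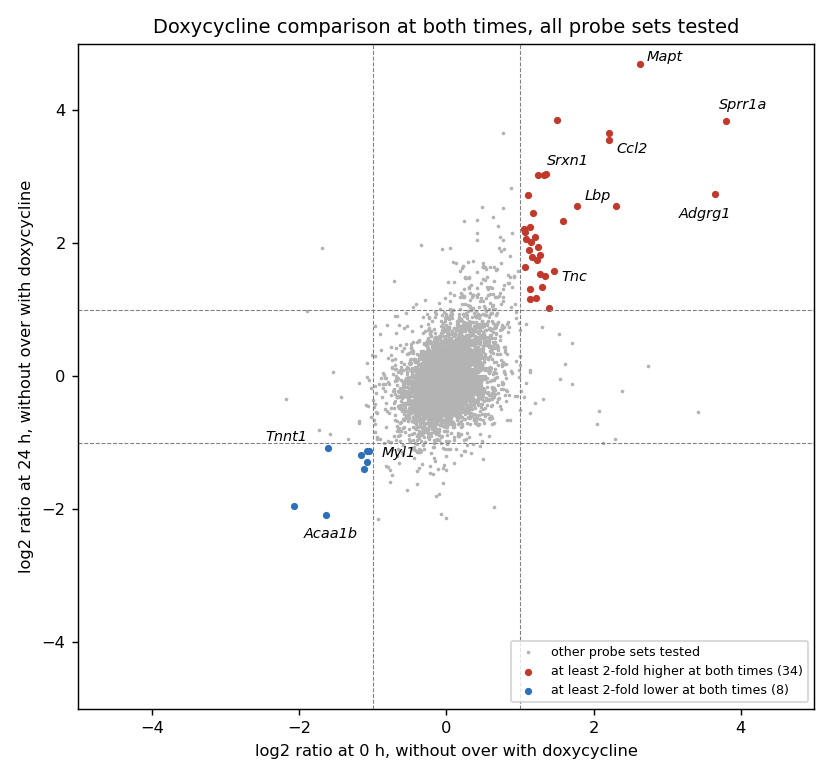
Log2 ratio of the signal without over with doxycycline at 0 h (horizontal axis) and 24 h (vertical axis), each point a probe set tested, with dashed lines at 2-fold. The 34 red points at upper right outnumber the 8 blue points at lower left, and Sprr1a, Mapt, Adgrg1 and Ccl2 lie farthest from the origin among the labelled genes.

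A linear model with time and doxycycline as terms (limma, 2-sided, Benjamini-Hochberg adjusted over all 6211 probe sets) called 48 probe sets at an adjusted p under 0.05. Of these, 36 were higher without doxycycline (0.58%) and 12 lower (0.193%), and 29 of the 48 also passed 2-fold at both times. By gene, 28 rose (0.58%) and 7 fell (0.145%) without doxycycline relative to with it. The model has 1 residual degree of freedom per probe set, the difference of the log2 ratio between 24 h and 0 h. A ratio that changes between the times therefore raises the p-value, whether or not the change is noise. The variance of the model is drawn towards a trend pooled over all probe sets (prior degrees of freedom 6.44). The labels name no separate cultures, so the p-values of the model cover no more than this spread among these 4 arrays, which may be technical. Its calls varied strongly with the settings: Sprr1a was called in 10 of 11 alternative fits, no other gene called here in more than 8, and no gene was called without the filter on dim probe sets.

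The largest ratio held at both times belonged to Sprr1a, a small proline-rich protein of the cornified envelope that stressed and injured cells switch on. Its signal was 237.7 without and 16.8 with doxycycline at 0 h, and 687.5 without and 47.9 with doxycycline at 24 h. Both arrays without doxycycline were thus above both arrays with it, by 13.9-fold at 0 h (against the floor) and 14.4-fold at 24 h (mean log2 ratio 3.82 ± 0.22, SE; limma adjusted p = 0.00159). Adgrg1, an adhesion G protein-coupled receptor that in muscle takes part in myoblast differentiation, had signals of 233.7 and 18.6 at 0 h and 296.1 and 44.4 at 24 h, without and with doxycycline. It was 12.6-fold and 6.67-fold higher without doxycycline (limma adjusted p = 0.0155). Mapt, which encodes the microtubule-binding protein tau, gave 105.5 and 10.3 at 0 h and 491.0 and 18.9 at 24 h. The arrays with doxycycline were at or near the floor, so its folds of 6.17 and 26.0 depend on that floor (limma adjusted p = 0.0364). Its 2 other tested probe sets were also higher without doxycycline, but with smaller log2 ratios of 1.23 and 1.53 at 0 h and 1.75 and 0.64 at 24 h.

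**Figure D2:**
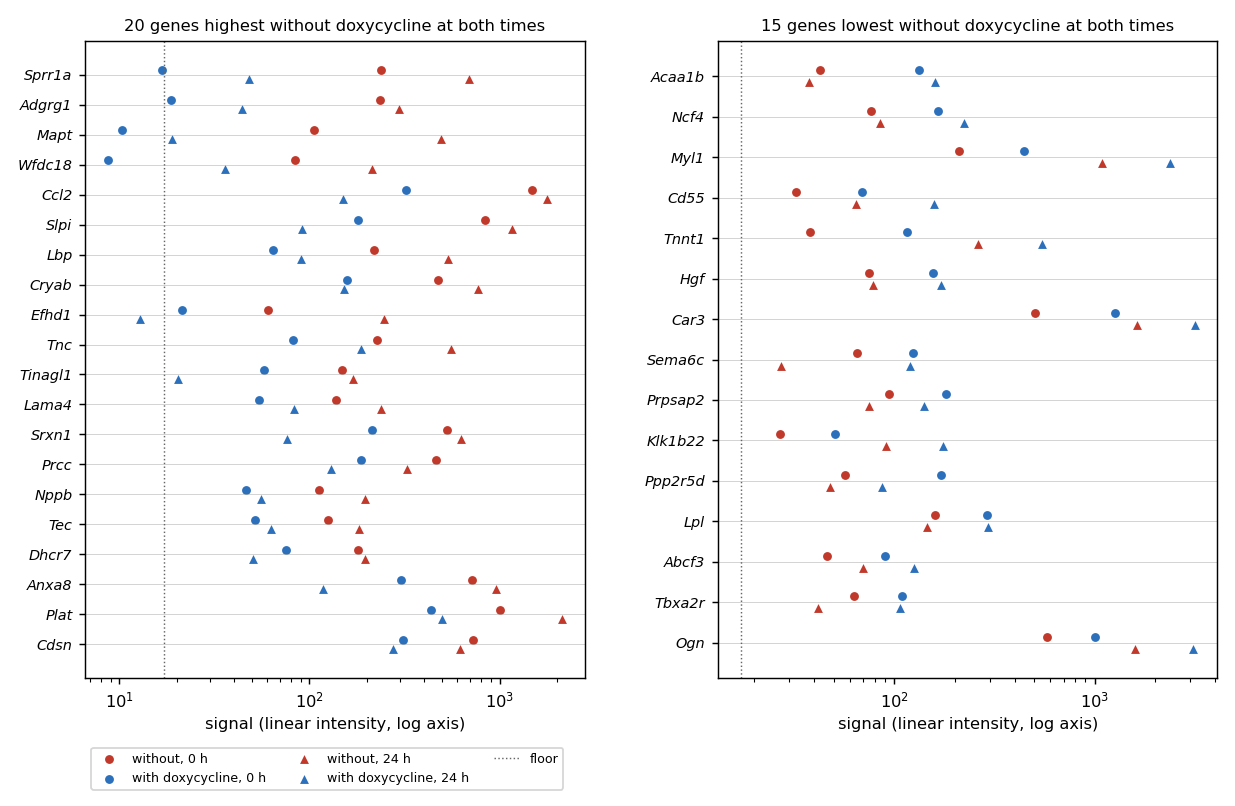
Signal (linear intensity on a log axis) on each of the 4 arrays for the 20 genes highest and the 15 genes lowest without doxycycline at both times, with circles for 0 h, triangles for 24 h, red for without and blue for with doxycycline, and a dotted line at the floor of 17.1. For all genes at left the red symbol lies right of the blue one at both times, and for Myl1, Tnnt1, Car3 and Ogn at right the 24 h signals lie above the 0 h signals in both treatments.

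The chemokine and cytokine list had the highest median ratio at both times among the lists with at least 10 genes tested. Ccl2, the chemokine that draws monocytes, had signals of 1487 without and 321.1 with doxycycline at 0 h and of 1773.7 and 150.7 at 24 h. Both arrays without doxycycline exceeded both with it, by 4.63-fold and 11.8-fold (limma adjusted p = 0.0155), and the difference came with a lower signal at 24 h than at 0 h only in the doxycycline arrays. Ccl7, a second monocyte chemokine, followed with 296.0 and 131.0 at 0 h and 280.4 and 51.3 at 24 h, 2.26-fold and 5.47-fold higher without doxycycline (limma adjusted p = 0.0485). Of the 11 chemokine and cytokine genes tested, 3 were at least 1.5-fold higher at both times and 0 lower, against 1.89% and 0.85% of all genes. These were Ccl2, Ccl7 and Cxcl12, a chemokine that attracts CXCR4-bearing cells, for which the ratios were 1.56-fold and 1.74-fold and which was not called (limma adjusted p = 0.11). By any amount 7 of the 11 genes were higher at both times and 2 lower, against 26.0% and 37.4% of all genes. The lower ones, named after their values were seen, were Cxcl5 and Csf1. Their log2 ratios were -1.09 and -0.04 at 0 h and -0.43 and -0.23 at 24 h. The median log2 ratio of the list was 0.36 at 0 h and 0.82 at 24 h, against -0.02 and -0.06 over all genes.

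Among the 21 NF-kB and acute-phase genes tested, 3 were at least 2-fold higher at both times and 0 lower, against 0.58% and 0.124% of all genes. Slpi, a secreted inhibitor of neutrophil proteases, had signals of 835.7 and 180.8 at 0 h and 1159.6 and 91.8 at 24 h, without and with doxycycline. It was 4.62-fold and 12.6-fold higher without doxycycline (limma adjusted p = 0.0155), and its second tested probe set gave the same direction with log2 ratios of 1.16 and 1.80. Lbp, the acute-phase protein that carries lipopolysaccharide, gave 219.2 and 64.0 at 0 h and 532.4 and 90.3 at 24 h (3.43-fold and 5.90-fold; limma adjusted p = 0.0155). Ptgs2, the inducible cyclooxygenase, gave 172.6 and 78.9 at 0 h and 142.7 and 57.4 at 24 h, and although 2.19-fold and 2.49-fold higher it was not called (limma adjusted p = 0.0736). Rela, the transactivating subunit of NF-kB, was not higher, with log2 ratios of -0.40 and -0.21 (limma adjusted p = 0.297). The list's median was 0.23 at 0 h and -0.02 at 24 h, and the latter becomes positive under quantile, median and spike-in scaling, at 0.03, 0.03 and 0.30. Wfdc18, a small secreted protein with the same whey acidic fold as Slpi, had signals of 84.2 and 8.7 at 0 h and 212.0 and 35.9 at 24 h (4.92-fold, against the floor, and 5.91-fold; limma adjusted p = 0.0437).

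Genes better known from skin were the second group. Besides Sprr1a, Anxa8, an annexin that binds membranes in the presence of calcium, had signals of 715.9 and 302.5 at 0 h and 959.5 and 117.6 at 24 h. Both arrays without doxycycline were higher, by 2.37-fold and 8.16-fold, with a limma adjusted p of 0.0531. Cdsn, corneodesmosin, which holds cornified cells together, gave 723.8 and 312.1 at 0 h and 620.3 and 273.8 at 24 h, with nearly equal ratios of 2.32-fold and 2.27-fold (limma adjusted p = 0.0198). Krt6a, a keratin of stressed epidermis, was 1.57-fold and 3.14-fold higher (limma adjusted p = 0.0966). Of the 12 keratin, cornified-envelope and epithelial genes tested, which do not include Cdsn, 3 were at least 1.5-fold higher at both times and 0 lower. Over all genes the shares were 1.89% and 0.85%. The median log2 ratio was 0.24 at 0 h and 0.49 at 24 h. By any amount 5 were higher at both times and 1 lower, and the rest changed sign between the times. Among these, named after their values were seen, Krt17 and Krt6b had log2 ratios of 0.45 and 0.07 at 0 h and -0.87 and -0.17 at 24 h. Cdh1, the cadherin that defines epithelium, was the 1 lower at both times: its signals were 188.2 and 230.8 at 0 h and 154.4 and 206.5 at 24 h, without and with doxycycline.

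Oxidative-stress genes diverged mainly at 24 h. Srxn1, sulfiredoxin, which repairs over-oxidised peroxiredoxins, had signals of 529.3 and 212.0 at 0 h and 627.0 and 76.6 at 24 h, without and with doxycycline. Its log2 ratio was 1.32 at 0 h and 3.03 at 24 h (limma adjusted p = 0.0485), but its second tested probe set gave log2 ratios of only 0.29 and 0.23. The glutathione transferases Gsta2 and Gsto1, which conjugate or reduce electrophiles, were higher by 1.82-fold and 1.64-fold at 0 h and by 3.51-fold and 3.82-fold at 24 h (limma adjusted p = 0.0531 and 0.0736). Gsta2 belongs to a family of close copies, so its probe set may read more than 1 member. Sod3, the extracellular superoxide dismutase, was 1.65-fold and 2.38-fold higher (limma adjusted p = 0.0698). Of the 33 genes tested in the glutathione and oxidative-stress list, 7 were at least 2-fold higher at 24 h and 0 lower, against 2.67% and 1.16% of all genes. The other members past 2-fold at 24 h, named after their values were seen, were Nqo1, Aldh3a1 and Gsta4, with log2 ratios of 1.38, 1.18 and 1.23 at 24 h and 0.34, 0.53 and 0.36 at 0 h. By any amount, 19 of the 33 genes were higher at both times and 6 lower, 57.6% and 18.2%, while over all genes the shares were 26.0% and 37.4%. The response was not shared by the whole list: Hmox1, heme oxygenase, had log2 ratios of -0.05 and -0.12. Other glutathione transferases, named after their values were seen, ran in both directions. Gsta4, Gstm5 and Gstp1 were higher at both times, and Gstm1, Gstm2, Mgst1 and Mgst2 lower. For Gstm2, Mgst1 and Mgst2 the log2 ratios were -0.52, -0.28 and -0.83 at 0 h and -0.59, -0.56 and -0.12 at 24 h.

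**Figure D3:**
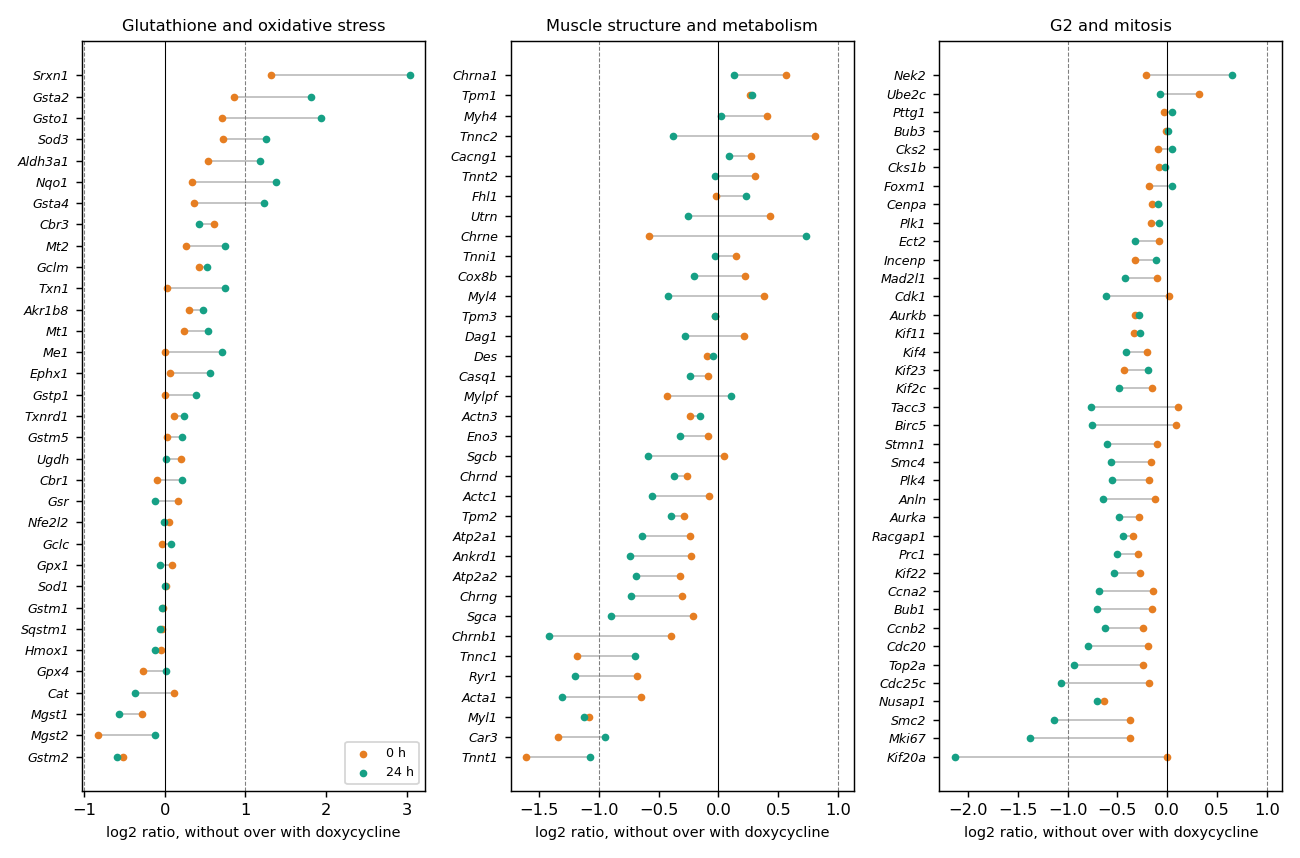
Log2 ratio of the signal without over with doxycycline for every tested gene of 3 lists, with orange points for 0 h and green points for 24 h joined by a line, and dashed lines at 2-fold. Glutathione and oxidative-stress genes lead with Srxn1 at 1.32 and 3.03, muscle genes end with Tnnt1 at -1.60 and -1.07, and most G2 and mitosis genes have their green point left of zero.

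Promoter sequences are shown for the genes higher at both times whose window holds an AP-1 site, because this letter motif had the highest ratio of its share here to its share in all promoters. Each is the stretch of 250 bases just before a transcription start (RefSeq, GRCm38.p6), read 5' to 3' on the strand of the gene, with the AP-1 letters TGACTCA or TGAGTCA in capitals. The windows lie at chr3:92485882-92486131 on the minus strand for Sprr1a, and on the plus strand at chr8:94984149-94984398 for Adgrg1, chr2:152105274-152105523 for Srxn1, chr19:20492333-20492582 for Aldh1a1 and chr7:143829964-143830213 for Dhcr7. Adgrg1, Aldh1a1 and Dhcr7 also have other annotated starts, and the promoters searched there held no AP-1 site. Which start was used in these cells was not measured.
Sprr1a: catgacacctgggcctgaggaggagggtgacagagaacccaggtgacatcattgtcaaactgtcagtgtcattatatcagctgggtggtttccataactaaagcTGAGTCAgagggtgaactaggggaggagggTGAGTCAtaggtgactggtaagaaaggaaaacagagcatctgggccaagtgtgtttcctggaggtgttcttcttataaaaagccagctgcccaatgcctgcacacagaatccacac
Adgrg1: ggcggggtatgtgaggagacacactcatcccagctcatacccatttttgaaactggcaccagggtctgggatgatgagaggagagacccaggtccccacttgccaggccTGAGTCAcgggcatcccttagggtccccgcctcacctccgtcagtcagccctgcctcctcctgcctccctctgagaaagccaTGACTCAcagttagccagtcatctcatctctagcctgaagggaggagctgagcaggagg
Srxn1: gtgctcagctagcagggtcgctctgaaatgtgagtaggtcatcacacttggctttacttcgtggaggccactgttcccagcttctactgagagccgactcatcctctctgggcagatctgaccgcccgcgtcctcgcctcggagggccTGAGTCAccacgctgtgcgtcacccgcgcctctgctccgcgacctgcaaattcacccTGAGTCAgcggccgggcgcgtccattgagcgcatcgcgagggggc
Aldh1a1: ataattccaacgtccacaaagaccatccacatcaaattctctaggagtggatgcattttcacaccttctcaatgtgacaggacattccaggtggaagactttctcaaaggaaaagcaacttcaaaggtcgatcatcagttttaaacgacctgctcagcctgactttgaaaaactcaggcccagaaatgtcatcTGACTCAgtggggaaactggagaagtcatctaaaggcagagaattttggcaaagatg
Dhcr7: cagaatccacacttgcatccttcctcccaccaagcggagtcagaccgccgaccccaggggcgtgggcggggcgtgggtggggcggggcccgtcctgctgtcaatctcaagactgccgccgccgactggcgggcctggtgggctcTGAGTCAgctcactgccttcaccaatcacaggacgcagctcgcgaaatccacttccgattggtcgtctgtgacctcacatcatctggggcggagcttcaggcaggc

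Of the 28 genes at least 2-fold higher at both times, 21 had a promoter in the table, with 34 promoters in all, and 5 of the 34 (14.7%) held an AP-1 site, against 214 of 5084 promoters (4.21%) over the genes tested. The 5 genes make up 23.8% of the 21, against 5.05% of 3939 genes. None of the 6 promoters of the lower genes held it. The search covered both strands from 250 bases before to 50 after each start, and a match is a description of letters, not of binding. The antioxidant response element TGACNNNGC, which can overlap an AP-1 match, was found in 14.7% of the promoters of the higher genes and 13.9% of all promoters. The E-box CANNTG, the letters bound by MyoD and its relatives, was found in 82.4% and 62.5%. The C/EBP letters TTGCGCAA and TTGCAA were found in 8.82% and 4.90%. The letters of the remaining motifs were in 0 promoters of the higher genes: the NF-kB motif was found in 0.452% of all promoters, the cAMP response element TGACGTCA in 2.99%, and the serum response element in 0.0197%. Of the 5 genes printed, Aldh1a1, a retinaldehyde dehydrogenase, had signals of 40.0 and 18.5 at 0 h and 463.7 and 69.8 at 24 h (2.16-fold and 6.64-fold, limma adjusted p = 0.106). Its other probe set, below the filter with signals from 32.6 to 40.5, gave log2 ratios of only 0.13 and 0.31. Dhcr7, which makes the last step of cholesterol synthesis, gave 179.1 and 75.6 at 0 h and 195.1 and 50.4 at 24 h (2.37-fold and 3.87-fold; limma adjusted p = 0.0485). The cholesterol and fatty acid synthesis list, Dhcr7 included, ran in both directions. Of 19 tested, 4 were higher and 8 lower at both times. The median log2 ratio was 0.01 at 0 h and -0.30 at 24 h (-0.24 relative to all genes). Past 1.5-fold at both times, 2 were higher and 0 lower, against 1.89% and 0.85% of all genes. These were Dhcr7 and Elovl6 (1.60-fold and 1.56-fold, limma adjusted p = 0.233). Under spike-in scaling 7 were higher and 4 lower, and the 24 h median of 0.01 stood beside 0.25 for all probe sets.

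Some matrix genes were also higher without doxycycline. Tnc, tenascin C, a matrix glycoprotein of injured and remodelling tissue, had signals of 226.9 and 82.4 at 0 h and 557.6 and 186.3 at 24 h, without and with doxycycline. It was 2.75-fold and 2.99-fold higher (limma adjusted p = 0.0155), so the ratio was nearly the same while the level more than doubled in both treatments. Lama4, a laminin chain of basement membranes, gave 137.9 and 54.4 at 0 h and 237.8 and 83.4 at 24 h (2.53-fold and 2.85-fold; limma adjusted p = 0.0449). Tinagl1, a matricellular protein of basement membranes, gave 147.7 and 57.8 at 0 h and 169.1 and 20.4 at 24 h, and the ratio grew from 2.56-fold to 8.29-fold (limma adjusted p = 0.0787). Of the 42 collagen, laminin and matrix genes tested, 3 were at least 2-fold higher at both times and 0 lower, against 0.58% and 0.124% of all genes. At 1.5-fold the counts were 6 and 1, against 1.89% and 0.85% of all genes. limma called 3 higher, Tnc, Lama4 and, named after its values were seen, the collagen VI chain Col6a3, and 1 lower, Ogn. The fibrillar collagen genes Col1a1 and Col3a1, also named after their values were seen, had log2 ratios of 0.54 and 0.19 at 0 h and -0.02 and 0.02 at 24 h. The median of the list was 0.22 at 0 h and 0.10 at 24 h. Ogn, osteoglycin, a small leucine-rich proteoglycan, gave 579.2 and 1001.1 at 0 h and 1587.4 and 3110.7 at 24 h, and was 1.73-fold and 1.96-fold lower without doxycycline (limma adjusted p = 0.0327).

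Plat, the tissue plasminogen activator, had signals of 1003 and 437.0 at 0 h and 2128.5 and 498.9 at 24 h, without and with doxycycline. It was 2.30-fold and 4.27-fold higher without doxycycline (limma adjusted p = 0.0275), and the signal roughly doubled over 24 h only in the arrays without doxycycline. Of the 16 matrix proteases and inhibitors tested, 2 were at least 2-fold higher at both times, Plat and Slpi, and 0 were lower. Over all genes these shares were 0.58% and 0.124%. By any amount 10 were higher and 3 lower, 62.5% and 18.8%, against 26.0% and 37.4% of all genes. The 2 matrix metalloproteinases tested, Mmp11 and Mmp14, named after their values were seen, were among the lower. Their log2 ratios were -0.22 and -0.45 at 0 h and -0.67 and -0.62 at 24 h. Of the ADAM metalloproteinases, also named after their values were seen, Adam9, Adam10 and Adam19 were higher at both times and Adam15 changed sign. Cryab, a small heat shock protein abundant in muscle, gave 474.9 and 158.3 at 0 h and 773.7 and 152.8 at 24 h (3.00-fold and 5.06-fold; limma adjusted p = 0.0155). Its probe set is of a kind that can match related transcripts, and its other probe set, below the filter with signals from 5.9 to 26.6, gave log2 ratios of 0.34 and -0.64. Among the 25 heat shock genes tested, 18 were higher at both times by any amount and 2 lower, 72.0% and 8.0%, against 26.0% and 37.4% of all genes. Hspa4 and Hsph1, chaperones of the HSP110 family, were 1.57-fold and 1.58-fold higher at 0 h and 1.66-fold and 2.02-fold higher at 24 h. The 3 other tested probe sets of Hspa4 gave smaller log2 ratios, from 0.03 to 0.45 at 0 h and from -0.25 to 0.14 at 24 h. The list's median was 0.15 at 0 h and 0.16 at 24 h, 0.17 and 0.23 above that of all genes.

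The remaining genes of the 20 highest came from several functions. Efhd1, a calcium-binding protein of mitochondria, gave 60.7 and 21.4 at 0 h and 247.0 and 12.8 at 24 h, without and with doxycycline, the last below the floor (limma adjusted p = 0.108). Prcc, a nuclear protein linked to splicing, gave 461.9 and 187.4 at 0 h and 327.1 and 129.2 at 24 h (2.46-fold and 2.53-fold; limma adjusted p = 0.0198). The other probe set of Prcc was below the filter, with signals from 2.9 to 4.4. On the probe sets reported, both arrays without doxycycline exceeded both with it for Efhd1 and Prcc. Nppb, the brain natriuretic peptide, and Tec, a non-receptor tyrosine kinase, were at least 2.41-fold higher at both times and missed the threshold (limma adjusted p = 0.064 and 0.0632).

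Several genes of the glucocorticoid-response and the glycolysis and hypoxia lists had larger ratios at 24 h than at 0 h. Hsd11b1, the enzyme that regenerates active glucocorticoid, had signals of 73.4 and 43.0 at 0 h and 586.0 and 46.1 at 24 h, without and with doxycycline. Its ratio was 1.71-fold at 0 h and 12.7-fold at 24 h, which gave a limma adjusted p of 0.144. Sgk1, a kinase induced by glucocorticoid, was 1.55-fold and 5.28-fold higher, and Dusp1, a phosphatase of MAP kinases, 1.64-fold and 2.30-fold higher (limma adjusted p = 0.116 and 0.0531). Angptl4, a secreted inhibitor of lipoprotein lipase, was 2.12-fold and 1.73-fold higher on its brightest probe set, but another tested probe set had log2 ratios of 2.05 and -0.71. Of the 15 glucocorticoid-response genes tested, 4 were at least 1.5-fold higher at both times and 0 lower, against 1.89% and 0.85% of all genes. By any amount 7 were higher and 4 lower, 46.7% and 26.7%, against 26.0% and 37.4% of all genes. The lower ones were Fkbp5, Per1, Klf9 and Pik3r1, named after their values were seen. Ndrg1, a stress- and hypoxia-induced protein, rose without doxycycline, with signals of 1283.4 and 718.9 at 0 h and 2171.2 and 753.2 at 24 h (1.79-fold and 2.88-fold; limma adjusted p = 0.0386). The glucose transporter Slc2a1 had signals of 531.8 and 353.6 at 0 h and 483.3 and 225.7 at 24 h (limma adjusted p = 0.0853), and 2 of the 20 glycolysis and hypoxia genes passed 1.5-fold at both times, with list medians of 0.01 at 0 h and 0.11 at 24 h.

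Muscle genes formed a named group with lower signals without doxycycline. By the submitters' account the cells without doxycycline survived and those with it were dying, so the lower muscle signals were those of the surviving cells. These are bulk samples, in which the share of muscle-like cells and the muscle RNA per cell cannot be told apart. Myl1, a fast-muscle myosin light chain, had signals of 210.0 without and 445.5 with doxycycline at 0 h and of 1093.5 and 2374.4 at 24 h. The groups overlap across times because the signal was higher at 24 h in both treatments, but at each time the array without doxycycline was lower, by 2.12-fold and 2.17-fold (limma adjusted p = 0.0198). Tnnt1, slow skeletal troponin T, gave 38.1 and 115.9 at 0 h and 261.0 and 548.8 at 24 h (3.04-fold and 2.10-fold lower; limma adjusted p = 0.0446). Its probe set can match related transcripts, and its other tested probe set gave log2 ratios of -0.08 and -0.39. Car3, the carbonic anhydrase of slow muscle, gave 501.5 and 1266.8 at 0 h and 1637.4 and 3161.4 at 24 h (2.53-fold and 1.93-fold lower; limma adjusted p = 0.0198). Tnnc1, slow and cardiac troponin C, was 2.27-fold and 1.62-fold lower at modest signals between 28.8 and 135.6 (limma adjusted p = 0.239).

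Of the 35 muscle structure and metabolism genes tested, 6 were at least 1.5-fold lower at both times and 0 higher, against 0.85% and 1.89% of all genes. By any amount 20 were lower and 4 higher. The share lower at both times was 57.1%, beside 37.4% of all genes, and limma called 3 lower, Myl1, Tnnt1 and Car3. The list's median log2 ratio was -0.09 at 0 h and -0.37 at 24 h, -0.07 and -0.30 relative to all genes, and under spike-in scaling the 24 h median was -0.03 where that of all probe sets was 0.25. The direction was not shared by every member, since Tpm1 and Chrna1, named after their values were seen, had log2 ratios of 0.26 and 0.57 at 0 h and 0.28 and 0.13 at 24 h. The regulators of muscle differentiation were closer to the rest. Myod1 had signals of 517.6 and 711.5 at 0 h and 419.1 and 813.0 at 24 h, without and with doxycycline, 1.37-fold and 1.94-fold lower without it (limma adjusted p = 0.11). Myog, myogenin, gave 40.0 and 63.5 at 0 h and 177.3 and 296.4 at 24 h (1.59-fold and 1.67-fold lower; limma adjusted p = 0.195), and it was about as much higher at 24 h than at 0 h in both treatments. Myf5 had the opposite sign at the 2 times, with log2 ratios of -0.27 and 0.24. Of the 23 myogenic regulators tested, 10 were lower and 4 higher at both times, 43.5% and 17.4%, against 37.4% and 26.0% of all genes. The median was -0.06 at 0 h and -0.10 at 24 h, and the latter becomes 0.22 under spike-in scaling.

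The other genes at least 2-fold lower at both times have varied roles. Acaa1b, a peroxisomal thiolase of fatty acid oxidation, had signals of 42.8 and 133.4 at 0 h and 37.6 and 159.8 at 24 h, without and with doxycycline. It was 3.12-fold and 4.25-fold lower without doxycycline (limma adjusted p = 0.0478), and its second probe set, below the filter, gave log2 ratios of -1.35 and -0.95. It has a close copy, Acaa1a, whose transcripts may share its probes. Ncf4, a subunit of the phagocyte NADPH oxidase, gave 76.7 and 166.2 at 0 h and 84.7 and 223.6 at 24 h (2.17-fold and 2.64-fold lower; limma adjusted p = 0.0485). Cd55, a surface inhibitor of complement, gave 32.5 and 68.8 at 0 h and 64.2 and 157.3 at 24 h (limma adjusted p = 0.141). Hgf, the growth factor that activates muscle satellite cells, gave 75.1 and 155.5 at 0 h and 78.8 and 171.1 at 24 h, a 2.07-fold and 2.17-fold difference that was not called (limma adjusted p = 0.0818). Lpl, lipoprotein lipase, was 1.81-fold and 2.01-fold lower (limma adjusted p = 0.0591), and its second tested probe set gave -1.19 and -0.67 (log2). The remaining genes of the 15 lowest, Sema6c, Prpsap2, Klk1b22, Ppp2r5d, Abcf3 and Tbxa2r, were at least 1.73-fold lower at both times at signals of at most 181.4, and limma called none of them (adjusted p from 0.109 to 0.227). Klk1b22 belongs to a large family of near-identical kallikreins, so which member its probe set reads is uncertain.

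Genes of cell division were lower without doxycycline at 24 h. Of the 38 G2 and mitosis genes tested, 29 were lower at both times by any amount and 0 higher, 76.3% and 0.0%, against 37.4% and 26.0% of all genes. The list's median log2 ratio was -0.17 at 0 h and -0.49 at 24 h, -0.15 and -0.43 relative to all genes. Under spike-in scaling 22 were lower and 2 higher, and the 24 h median of -0.20 stood beside 0.25 for all probe sets. Single differences were small at 0 h. limma called 0 of the 38, with 11 lower and 0 higher at an unadjusted p under 0.05, where 334 of all 4824 genes were lower and 388 higher. Mki67, the proliferation marker, had signals of 442.5 and 573.5 at 0 h and of 6.8 and 44.3 at 24 h, so that most of its signal was gone at 24 h in both treatments. The array without doxycycline was below the floor at 24 h (2.59-fold lower against the floor; limma adjusted p = 0.202). Kif20a, a kinesin of cytokinesis, gave 852.4 and 855.7 at 0 h and 11.6 and 74.9 at 24 h, equal before the medium and 4.38-fold lower after it, against the floor (limma adjusted p = 0.306). Nusap1, a spindle protein, was 1.55-fold and 1.63-fold lower (limma adjusted p = 0.178). The 31 genes of S phase and replication had a median of -0.00 at 0 h and -0.30 at 24 h, the latter 0.02 under spike-in scaling, and ran in both directions. Cdt1, which licenses replication origins, was 1.54-fold and 2.52-fold higher without doxycycline (limma adjusted p = 0.0818), while Brca1, a DNA repair factor, had 112.2 and 116.2 at 0 h and 20.2 and 61.1 at 24 h. The CDK inhibitor Cdkn1a, p21, had log2 ratios of -0.06 and 0.36 (limma adjusted p = 0.687). Cdkn2d, another CDK inhibitor, named after its values were seen, had -0.34 at 0 h and 1.98 at 24 h.

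**Figure D4:**
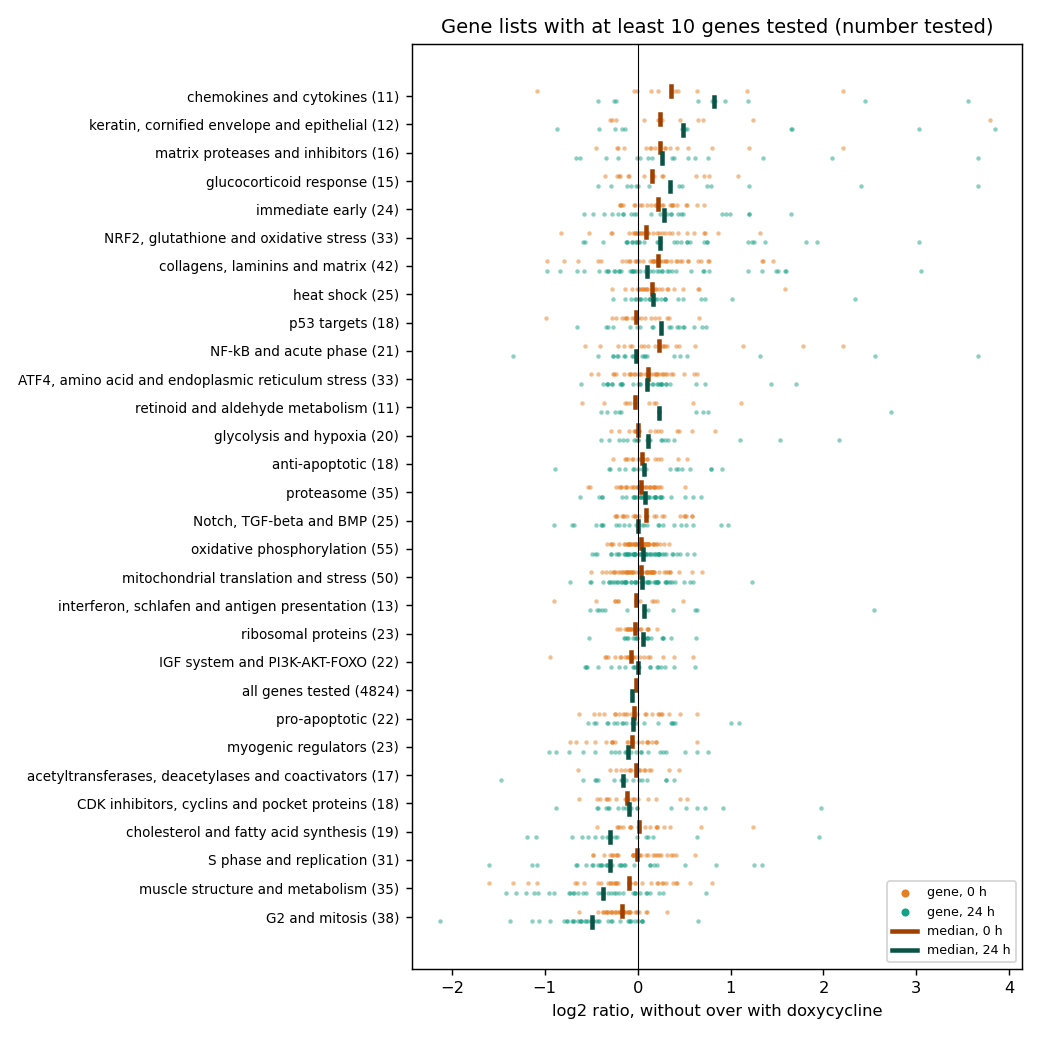
Log2 ratio of the signal without over with doxycycline for each tested gene of the lists with at least 10 genes tested, orange above for 0 h and green below for 24 h, with thick bars for the medians and lists ordered by the sum of both medians. The chemokine list is at the top with medians of 0.36 and 0.82, the G2 and mitosis list at the bottom with -0.17 and -0.49, and the row of all genes (medians only) lies near zero.

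Although the submitters describe survival in one treatment and apoptosis in the other, no apoptotic gene tested passed 2-fold at both times. Over all genes, 0.58% were past 2-fold higher and 0.124% lower. Of 22 pro-apoptotic genes tested, 5 were higher and 9 lower at both times, 22.7% and 40.9%, against 26.0% and 37.4% of all genes. Of the 22, 1 passed 1.5-fold and limma called 0 (2 higher and 2 lower at an unadjusted p under 0.05). The gene past 1.5-fold was Bid, a BH3-only protein that links death receptors to mitochondria, and it was higher in the surviving cells: 374.8 and 241.5 at 0 h and 385.3 and 191.3 at 24 h, without and with doxycycline (limma adjusted p = 0.0822). Casp12, a caspase of the endoplasmic reticulum, was 1.39-fold and 1.45-fold lower without doxycycline (limma adjusted p = 0.297). Of 18 anti-apoptotic genes, 10 were higher and 5 lower at both times, 55.6% and 27.8%, and none passed 1.5-fold. limma called 0 of the 18, with 4 higher and 0 lower at an unadjusted p under 0.05. Over all 4824 genes, 388 were higher and 334 lower at that p. Bag1 and Pim1, a chaperone partner of BCL2 and a survival kinase, were 1.36-fold and 1.45-fold higher at 0 h and 1.72-fold and 1.73-fold higher at 24 h (limma adjusted p = 0.133 and 0.0966). Bcl2 had signals of 239.5 and 201.3 at 0 h and 295.1 and 199.4 at 24 h (1.19-fold and 1.48-fold; limma adjusted p = 0.317). Mcl1 was 1.14-fold and 1.40-fold higher, and Bcl2l1, which encodes BCL-XL, had log2 ratios of 0.01 and -0.20. The medians of both lists were within 0.07 of zero at both times, and the 24 h median of the pro-apoptotic list turned from -0.06 to 0.26 under spike-in scaling. The 24 h median of the anti-apoptotic list moved from 0.07 to 0.38 on that scale, where that of all probe sets was 0.25.

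The p53 and growth-factor survival lists each held 1 gene past 1.5-fold at both times, where 1.89% of all genes were higher and 0.85% lower. Of 18 p53 targets tested, 8 were higher and 5 lower at both times, 44.4% and 27.8%, against 26.0% and 37.4% of all genes. Their median log2 ratio was -0.02 at 0 h and 0.25 at 24 h, the latter 0.32 above that of all genes. limma called 0 of them, with 4 higher and 1 lower at an unadjusted p under 0.05. The 1 past 1.5-fold was Rrm2b, a ribonucleotide reductase subunit for DNA repair, 1.98-fold and 1.57-fold lower without doxycycline (limma adjusted p = 0.157). Mdm2, the ligase that degrades p53, was 1.01-fold and 1.67-fold higher (limma adjusted p = 0.4). In the list of 22 genes of the IGF system and PI3K-AKT-FOXO pathway, 7 were higher and 10 lower at both times. Igf2, the autocrine growth factor of differentiating myoblasts, had signals of 117.2 and 224.9 at 0 h and 369.6 and 543.8 at 24 h, lower without doxycycline at each time (1.92-fold and 1.47-fold; limma adjusted p = 0.106). Igfbp2, an IGF-binding protein, was 1.51-fold and 1.53-fold higher (limma adjusted p = 0.318), whereas Akt1 and Igf1r had log2 ratios between -0.20 and -0.04.

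Relatives of p300 and genes of mitochondrial translation showed few differences held at both times. For comparison, 26.0% of all genes were higher and 37.4% lower at both times by any amount, and 1.89% and 0.85% past 1.5-fold. Crebbp, which encodes CBP, the closest relative of p300, gave 154.0 and 181.0 at 0 h and 228.7 and 311.8 at 24 h (1.18-fold and 1.36-fold lower without doxycycline; limma adjusted p = 0.386). Kat2b, the acetyltransferase PCAF, was 1.56-fold and 1.37-fold lower (limma adjusted p = 0.148), and of the 17 acetyltransferases, deacetylases and coactivators tested 4 were higher and 7 lower at both times, with Kat2a at -0.18 at 0 h and -1.47 at 24 h (log2). The 50 genes of mitochondrial translation and stress had medians of 0.04 at both times, with 18 higher and 15 lower, and Mrps12, a mitochondrial ribosomal protein, was the 1 gene past 1.5-fold (1.51-fold and 2.35-fold higher; limma adjusted p = 0.0966). The 55 genes of oxidative phosphorylation had medians of 0.03 and 0.06, the 23 ribosomal protein genes of -0.03 and 0.06, and the 35 proteasome genes of 0.03 and 0.08, with none past 1.5-fold at both times. Stress signalling through ATF4 was not uniform: Asns, asparagine synthetase, and Nupr1, a stress-induced chromatin protein, were 1.52-fold and 1.56-fold higher at 0 h and 1.54-fold and 2.71-fold higher at 24 h (limma adjusted p = 0.0834 and 0.0822), while Atf4 had log2 ratios of -0.07 and -0.04. Of the 33 genes in that list, 2 were past 1.5-fold higher and 0 lower, and 16 were higher by any amount against 7 lower.

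The other lists added few genes. Their counts stand beside 26.0% of all genes higher and 37.4% lower by any amount, and 1.89% and 0.85% past 1.5-fold. Of 24 immediate early genes tested, 11 were higher and 3 lower at both times, with medians of 0.22 and 0.28, and Klf4, a zinc-finger factor of epithelia, was 1.44-fold and 3.13-fold higher (limma adjusted p = 0.11). Of 11 genes of retinoid and aldehyde metabolism, 2 passed 1.5-fold, Aldh1a1 and Adh7, an alcohol dehydrogenase (1.52-fold and 1.63-fold; limma adjusted p = 0.0966). Of 13 genes of interferon response and antigen presentation, 4 were higher and 5 lower, and Slfn2, a schlafen protein, was 1.40-fold higher at 0 h and 5.82-fold higher at 24 h (limma adjusted p = 0.181). Of 25 Notch, TGF-beta and BMP genes, 8 were higher and 6 lower, with log2 ratios of 0.58 and 0.50 at 0 h and 0.90 and 0.59 at 24 h for Tgfb2 and Inhba, both ligands. Of 18 CDK inhibitors, cyclins and pocket proteins, 4 were higher and 11 lower. Ccnd1, cyclin D1, was 1.45-fold and 1.90-fold higher, while Rbl1, the pocket protein p107, was 1.55-fold and 1.84-fold lower (limma adjusted p = 0.0966 and 0.256).

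Some differences were seen at 1 time only. At 24 h, 22 genes were at least 2-fold higher and 18 at least 2-fold lower without doxycycline although they differed by under 1.2-fold at 0 h; the reverse held for 8 higher and 6 lower genes. The highest at 24 h were H2-DMa, a chaperone of class II antigen presentation, with 112.0 and 107.8 at 0 h and 178.2 and 46.5 at 24 h, and Dctpp1, a nucleotide pyrophosphatase, with 177.5 and 185.4 at 0 h and 84.3 and 22.4 at 24 h. A second probe set of Dctpp1 gave a log2 ratio of 0.10 at 24 h. Pdk4, the kinase that shuts pyruvate out of mitochondria, had 364.5 and 305.7 at 0 h and 528.2 and 188.3 at 24 h, a 2.81-fold difference at 24 h. On the lower side, Vcam1, an adhesion molecule of myoblast fusion and of inflamed endothelium, had 351.2 and 408.0 at 0 h and 298.7 and 759.2 at 24 h, and its 2 other tested probe sets gave -0.73 and -0.77 (log2) at 24 h. Kat2a, the acetyltransferase GCN5, had 97.7 and 110.4 at 0 h and 42.2 and 116.9 at 24 h. Apoe, the lipid carrier apolipoprotein E, was below the floor on both 0 h arrays and 109.2 and 290.4 at 24 h. At 0 h only, Zfp787, a zinc-finger protein, had 114.5 and 6.6 (below the floor) without and with doxycycline, against 135.9 and 122.4 at 24 h, and Dmtf1, a cyclin D-binding factor, had 146.1 and 27.9 against 120.6 and 140.4. In both, the 0 h array with doxycycline was the low one of the 4. With 1 array per treatment and time, whether a ratio differs between the times could not be tested.

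**Figure D5:**
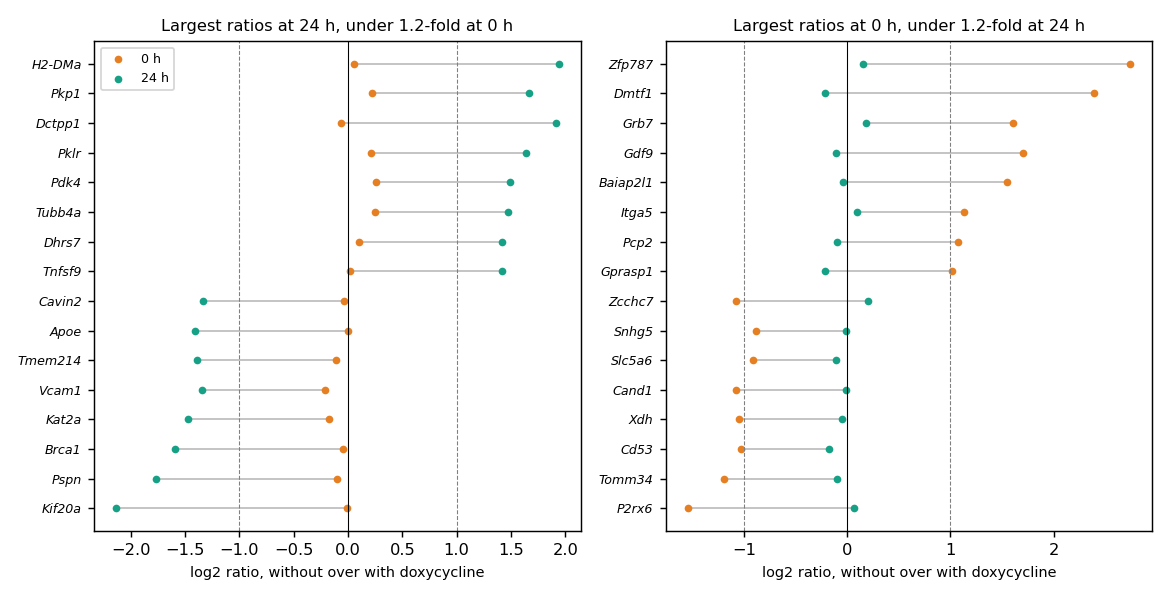
Log2 ratio of the signal without over with doxycycline at 0 h (orange) and 24 h (green), joined by a line, for the genes with the largest ratio at 24 h (left) or at 0 h (right) among those under 1.2-fold at the other time, with dashed lines at 2-fold. At left the green points lie beyond the lines from 1.94 for H2-DMa to -2.13 for Kif20a while the orange points stay near zero, and at right Zfp787 reaches 2.74 (against the floor) and P2rx6 -1.54 at 0 h.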

How the data were processed

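The deposited table holds 1 signal per probe set and array, a linear intensity that the authors made with MAS5, per the submitters' processing notes; its version was not given in the sources used here, and scanner files were not used. The trimmed mean (between the 2nd and 98th percentile) was between 199.8 and 200.0 on each of the 4 arrays, so the values had been scaled to a common target before deposit. Probe sets were named from the platform annotation with symbols updated by gene ID: 10833 had 1 symbol, 396 several and 1193 none, and only those with 1 were named. Of the 6211 tested, 1154 were of kinds that may match several transcripts.

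Signals were floored at the 25th percentile (17.1), filtered at the median of the mean signal (76.8) and turned into log2 ratios per time in Python 3.11.15. limma 3.58.1 in R 4.3.3 was fitted with time and doxycycline as terms and a variance trend, with Benjamini-Hochberg adjustment. In simulated data of the 6211 probe sets for this comparison, it recovered 99 of 100 probe sets changed by 1 on the log2 scale and 100 of 100 changed by 2, with 19 false calls. The simulated noise was normal, with a common spread for probe sets of similar signal, and each change was equal at both times. Recovery in the real data may therefore be lower. There, limma called 23 of the 34 probe sets at least 2-fold higher at both times and 6 of the 8 lower. Precision is limited by having 4 arrays. The arrays, gene lists (35) and tests were chosen with earlier results of these data known. Genes named are the 20 higher and 15 lower with the largest ratio held at both times, up to 4 per list past 1.5-fold at both times (or the 2 largest where fewer than 2 pass), the 8 per direction and time with a difference at 1 time only, up to 6 with opposite directions, and a fixed set of p300, survival, cell-cycle and muscle genes. Of that set, for example, Ep300, Trp53, Nfkb1 and Gapdh had no probe set with 1 symbol and Mmp2 was below the filter. Lists are described by counts and medians, with no set test. Alternatives changed the scaling (quantile, median, spike-in), the floor, the filter, the fold threshold, the probe sets used and the variance trend.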

Additional observations from a re-analysis of the deposited data

Results flagged for a closer look

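For 6 genes the 2 times had opposite directions, each at least 1.5-fold. With 1 array per treatment and time the difference between the times was not tested. Without over with doxycycline, Colq, the collagen tail of acetylcholinesterase, had a log2 ratio of 2.12 at 0 h and -0.998 at 24 h. Snrp1c-ps2, a pseudogene of a splicing protein gene whose signal may come from the parent gene, had 2.29 and -0.95. The 0 h ratio of Colq rests on 1 low signal with doxycycline (26.2), and that of Snrp1c-ps2 on 1 high signal without it (436.1). Arih1, a ubiquitin ligase, had -0.81 and 0.78, and its other tested probe set gave -0.16 and 0.35. Tsen15, a subunit of the tRNA splicing endonuclease, had -0.97 and 0.76. Hip1r, an endocytic adaptor, had -0.71 and 1.44, and Ackr4, an atypical chemokine receptor, had -0.70 and 0.92. Over all genes tested, 16 had opposite directions of at least 1.5-fold at both times, and 1 probe set of at least 2-fold.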

How the results depend on the processing

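The 34 probe sets at least 2-fold higher at both times were 34 of 34 the same under quantile and median scaling and were all among the 43 found under spike-in scaling. The count was 22 with the floor at the median, 74 with no filter, 64 with a filter on the highest array, 123 at 1.5-fold, 8 at 3-fold, 57 from the 0 h arrays alone and 165 from the 24 h arrays alone. The 8 lower probe sets became 3 under spike-in scaling, 4 with the floor at the median, 5 with a pseudocount of 16, 32 with no filter, 17 with a filter on the highest array, 54 at 1.5-fold, 2 at 3-fold, 28 at 0 h alone and 79 at 24 h alone. The 48 limma calls became 84 under quantile normalization, 1 under median scaling, 303 under spike-in scaling, 83 with the floor at the median, 85 with a filter on the highest array, 1 with no variance trend and 0 with no filter, where 858 had an unadjusted p under 0.05 (908 in the reported fit). The cause was not tested. The remaining settings, with the filter over all 6 arrays added after seeing the data, kept each count within 1.5 times. No named gene's ratio past 1.5-fold changed sign under another scaling or floor. The reported limma fit already pairs the arrays by time. No paired analysis was possible beyond that, because each treatment and time has 1 array. Signals near the floor limit the folds of genes that include Sprr1a, Mapt, Wfdc18, Efhd1, Kif20a, Mki67, Apoe and Zfp787.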

Other observations

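Peg3, an imprinted zinc-finger gene of muscle progenitors, fell without doxycycline, with signals of 2126.9 and 3191.1 at 0 h and 2698.5 and 4616.3 at 24 h, without and with it (log2 ratios of -0.59 and -0.77; limma adjusted p = 0.0364). It was singled out after its values were seen. A list of imprinted genes written after that held 12 tested genes, Peg3 included, of which 7 were lower and 3 higher at both times, where 37.4% of all genes were lower and 26.0% higher. Their medians were -0.11 at 0 h and -0.19 at 24 h, and 1 of the 12 was past 1.5-fold lower, Peg3. The imprinted gene H19 is not among the 12, because its probe set is annotated to Mir675 as well. That probe set was also lower without doxycycline, with signals of 1259.6 and 2410.3 at 0 h and 1969.1 and 3788.9 at 24 h. Its log2 ratios were -0.94 at both times (limma adjusted p = 0.0155).

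Several genes that limma called but that no list held were also higher without doxycycline, named here after their values were seen. Bzw2, a translation regulator, had signals of 1705.3 and 810.9 at 0 h and 2035.7 and 451.9 at 24 h (2.10-fold and 4.50-fold; limma adjusted p = 0.0381). Vamp5, a membrane-fusion protein of muscle, had 327.3 and 149.9 at 0 h and 369.0 and 98.3 at 24 h (2.18-fold and 3.75-fold; limma adjusted p = 0.0381). Slc6a6, the taurine transporter, had 1169 and 692.3 at 0 h and 1518.4 and 884.0 at 24 h, with nearly equal ratios of 1.69-fold and 1.72-fold (limma adjusted p = 0.0449).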
